A study of Homo sapiens with 21 samples.

Results

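The 6 genes DDIT4, SESN2, SESN3, TRIB3, EIF4EBP1 and DEPTOR encode proteins that hold back the kinases mTOR and AKT or the protein synthesis that mTOR drives. They were taken by name from the gene count table, where they are 6 of 60671 genes, and all 6 were among the 14012 genes with enough reads to be tested (at least 1 CPM, a gene's counts per 1000000 counts of its library, in at least 8 of 21 libraries). None passed through 1 group alone, since the lowest level of any of them in any library was 2.12 CPM. RNA had been sequenced from OCI-AML3 cells, an acute myeloid leukaemia line, and from HEK293T cells, a line derived from human embryonic kidney, to examine how the response to endoplasmic reticulum (ER) stress alters splicing, and gene levels of the same libraries are described here. The 7 groups of 3 replicates were OCI-AML3 cells left untreated (0 h), OCI-AML3 cells given tunicamycin (TM, 1 μg/mL) or its solvent DMSO for 4 h or for 24 h, and HEK293T cells given TM or DMSO for 24 h. Each cell type is represented by 1 line, no HEK293T library of the earlier time was analysed here, and the labels do not say whether replicates were separate cultures, so that p-values measure only the spread between these samples.

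mTOR complex 1 (mTORC1) is the kinase complex through which amino acids, growth factors and energy supply set the rate of protein synthesis, and AKT is the kinase through which growth factor signals reach it. AKT relieves mTORC1 of the TSC complex, which keeps the GTPase RHEB inactive. Tunicamycin stops sugars from being attached to asparagines of new ER proteins, and the unfolded proteins that result activate the kinase PERK, whose target eIF2α, once phosphorylated, favours the translation of the transcription factor ATF4. DDIT4, SESN2 and TRIB3 are textbook targets of ATF4 and its partner DDIT3 (CHOP), EIF4EBP1 is also known as one, and SESN3 is better known as a target of FOXO transcription factors.

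ATF4 and its partners bind the C/EBP-ATF response element (CARE), searched here as TGATGNAA on both strands. In the RefSeq promoter windows on GRCh38, which span 250 bases before to 50 bases after a start site, no CARE was found for DDIT4, SESN2, SESN3 or TRIB3, against 3.62% of the 35116 windows of the table that hold one. A window of 2000 bases to either side, chosen after the data had been seen, held 4 matches at DDIT4, 2 at SESN2, 5 at TRIB3 and 0 at SESN3. Of all start sites, 44.7% had at least 1 match in that window, 13.6% at least 2 and 3.25% at least 3. The stretches upstream of the start sites that hold these matches are shown because their genes rose in all 3 TM comparisons. They are written 5′ to 3′ along the plus strand, on which all 3 genes lie, with the matches in capitals, and a match to the opposite strand reads as its reverse complement.
DDIT4, chr10:72272741-72272995, plus strand: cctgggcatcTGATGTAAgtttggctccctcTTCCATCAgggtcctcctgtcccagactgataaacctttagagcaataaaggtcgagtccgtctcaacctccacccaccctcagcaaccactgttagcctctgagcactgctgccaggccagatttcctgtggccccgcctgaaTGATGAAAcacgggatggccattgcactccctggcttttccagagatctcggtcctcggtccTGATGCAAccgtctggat
SESN2, chr1:28259212-28259239, plus strand: tgaagtccctTTTCATCAcgcaacccta
TRIB3, chr20:380882-380909, plus strand: tagctccggtTTGCATCAcccggaccgg

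The DDIT4 matches began at -1173, -1152, -1008 and -946 bases from the start site at position 72273924, in a stretch that overlaps an exon of another annotated gene (ENSG00000289506). The SESN2 match began at -296 bases from the start site at position 28259518, in no annotated exon. The 28 bases shown for TRIB3 recur, letter for letter, at chr20:380915-380942 and chr20:380948-380975, so that the upstream matches sit 33 bases apart, and they lie in the untranslated first exon of another annotated TRIB3 transcript. The FOXO element GTAAACA was in none of the 4 genes' promoter windows of the table (3.42% of windows hold it), nor was the ER stress element (CCAAT, 9 bases, CCACG, in 0.0769%). The hypoxia element ACGTG was found at 1 place in the DDIT4 window and in none of the other three genes' windows, against 21.4% of all windows. These matches are a description of letters, and binding was not measured. Promoters of EIF4EBP1 and DEPTOR were not analysed here.

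Total counts ran from 13838466 to 19961798 a library (median 16657737). All 8 myeloid markers examined reached a median of 1 CPM in OCI-AML3 libraries and 1 of 8 did in HEK293T libraries, while of 6 genes used as HEK293T markers 6 reached it in HEK293T and 1 in OCI-AML3 libraries. HSPA5, the ER chaperone BiP and a standard readout of ER stress, was higher with TM by 3.29 on the log2 scale at 4 h, 3.52 at 24 h and 2.70 in HEK293T cells, as a check of the TM labels. Its DMSO level in OCI-AML3 cells was lower at 24 h than at 4 h (log2 -0.72, SE 0.06, edgeR adjusted p = 1.9e-09). The values at 4 h and 24 h are thus not a ranking of the stress at these times. In DMSO for 4 h against untreated cells, edgeR called 0 of the 14012 genes (0%) at an adjusted p of at most 0.05, limma voom and DESeq2 also 0, and 1160 had an unadjusted p under 0.05. None of the 6 genes passed the test in that comparison.

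TM raised most of these brakes within 4 h in OCI-AML3 cells. DDIT4 was 43.5-fold, TRIB3 24.9-fold and SESN2 8.92-fold higher than in DMSO, and EIF4EBP1 1.87-fold, while SESN3 was 1.55-fold lower and DEPTOR did not pass the test. A gene was called at an adjusted p of at most 0.05 (edgeR, Benjamini-Hochberg over all genes tested) together with a log2 fold change beyond 1 in either direction. By this rule 3 of the 6 genes rose at 4 h and 0 fell, where 3.45% of all genes rose and 1.47% fell. By the adjusted p alone 4 rose and 1 fell, where 18.5% of all genes rose and 18.9% fell. At 24 h in OCI-AML3 cells 2 rose and 0 fell (4.05% and 2.26% of all genes), or 3 and 0 by the adjusted p alone (23.5% and 27.7%). In HEK293T cells at 24 h 4 rose and 0 fell (1.58% and 0.550% of all genes), or 4 and 1 by the adjusted p alone (12.6% and 13.1%). The members and rule were chosen with results of these data known, so that these counts describe the genes and are not a test of the group.

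**Figure D1:**
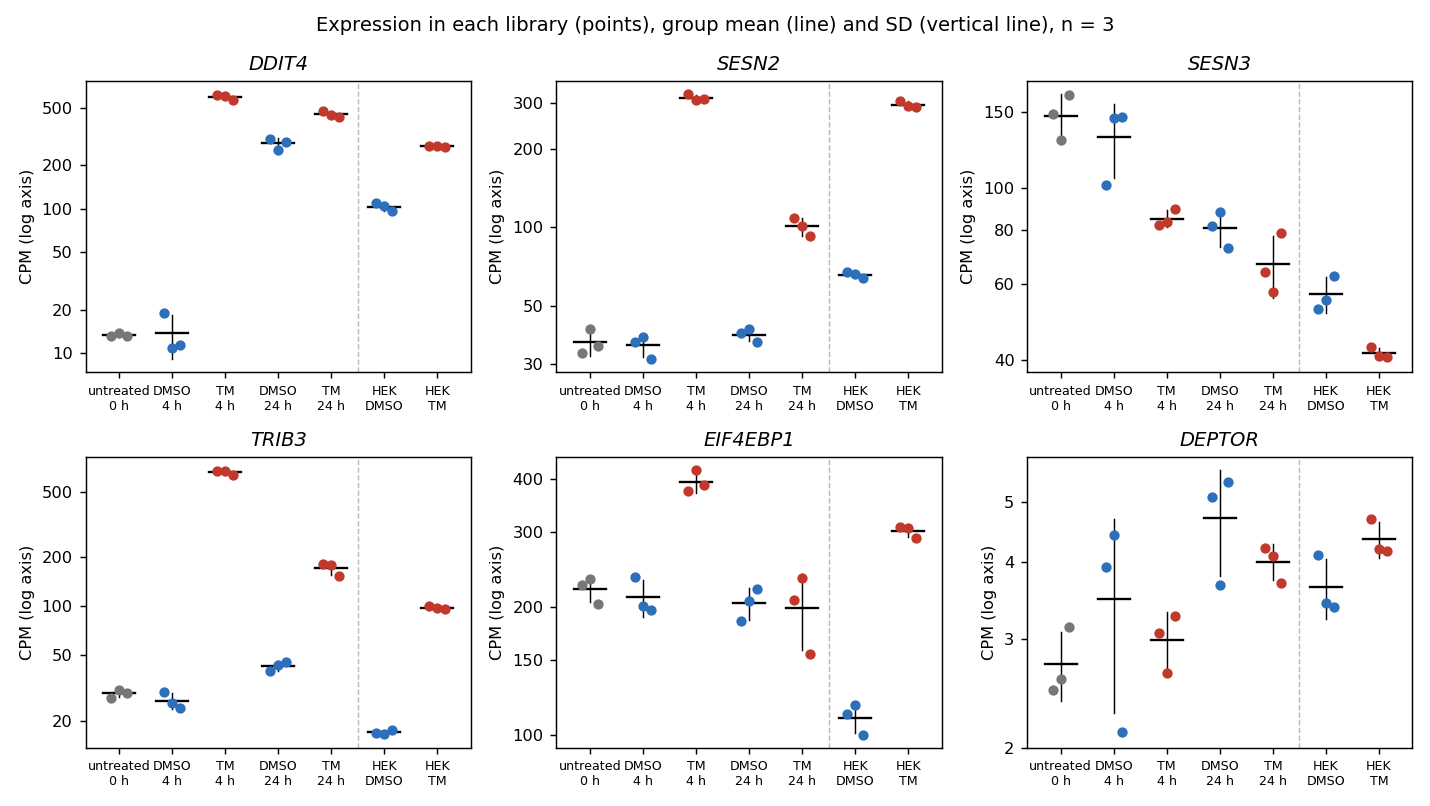
Expression of the 6 genes in CPM on log axes in each of the 21 libraries: untreated OCI-AML3 cells (grey), DMSO (blue) and TM (red), with HEK293T cells at 24 h right of the dashed line. Points are libraries, horizontal lines the mean and vertical lines the SD of 3; DDIT4, SESN2 and TRIB3 were highest in OCI-AML3 cells after TM for 4 h, with means of 595, 314 and 658 CPM.

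DDIT4 (REDD1; ENSG00000168209, chr10:72273919-72276036, plus strand) acts through the TSC complex to switch mTORC1 off. Its level was 13.03, 13.7 and 13.05 CPM in untreated cells and 19.1, 10.8 and 11.4 CPM after DMSO for 4 h. It was 616, 604 and 564 CPM after TM for 4 h. Every TM library at 4 h thus lay far above every library without TM at 0 h or 4 h, and the log2 fold change was 5.44 (SE 0.14, edgeR adjusted p = 9.3e-19), which ranked 5 from the highest among 14012 genes. Replicate 1 of DMSO at 4 h was the highest of its group, and without it the log2 fold change was 5.76. In bulk RNA a change in the level per cell cannot be told apart from a change in which cells are present.

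By 24 h DDIT4 was high without TM too. After DMSO for 24 h it was at 304, 257 and 289.6 CPM, 20.7-fold above DMSO at 4 h with no overlap (log2 4.37, SE 0.13, edgeR adjusted p = 1.5e-16), rank 7 from the highest of all genes. After TM for 24 h it was at 475, 448 and 432 CPM. These libraries were above all 3 DMSO libraries, but by only 1.59-fold (log2 0.67, SE 0.11, edgeR adjusted p = 2.1e-05), under the fold threshold. The TM level itself moved little between the times, 1.32-fold lower at 24 h than at 4 h (log2 -0.40, SE 0.11, edgeR adjusted p = 0.0027). The effect of TM on DDIT4 was smaller at 24 h than at 4 h by 4.77 on the log2 scale (SE 0.17, edgeR interaction, adjusted p = 9.8e-15), and the DMSO level differed between these times by 4.37.

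In HEK293T cells DDIT4 was at 109.6, 105 and 95.9 CPM in DMSO and at 273, 272 and 267 CPM in TM, 2.62-fold higher with no overlap (log2 1.39, SE 0.11, edgeR adjusted p = 1.6e-09). Over the 7 groups its mean level fell in the order TM 4 h (595 CPM), TM 24 h (451), DMSO 24 h (283), HEK293T TM (271), HEK293T DMSO (103), DMSO 4 h (13.7) and untreated (13.3). Neighbours in this order differed by the test except DMSO 24 h and HEK293T TM (edgeR adjusted p = 0.57) and DMSO 4 h and untreated (0.95). Its paralog DDIT4L had at most 1 count in any OCI-AML3 library and 41 to 113 counts in the HEK293T libraries (2.23 to 5.17 CPM). It was not tested, since the filter asks for 8 libraries and only the 6 HEK293T libraries reached 1 CPM.

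The sestrins bind the GATOR2 complex and keep amino acid signals from mTORC1, and SESN2 is also a leucine sensor. SESN2 (ENSG00000130766, chr1:28259518-28282491, plus strand) was at 36.3, 38.0 and 31.3 CPM after DMSO for 4 h and at 324, 307 and 310.3 CPM after TM. All TM libraries were several-fold above all DMSO libraries (log2 3.16, SE 0.08, edgeR adjusted p = 2.4e-18). At 24 h the levels were 39.3, 40.6 and 36.3 CPM in DMSO and 108, 102 and 92.4 CPM in TM, again without overlap and 2.60-fold apart (log2 1.38, SE 0.08, edgeR adjusted p = 6.4e-12).

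DMSO levels of SESN2 at 24 h and 4 h overlapped (log2 0.14, SE 0.08, edgeR adjusted p = 0.19), unlike those of DDIT4. Its TM level at 24 h was 3.12-fold lower than at 4 h (log2 -1.64, SE 0.08, edgeR adjusted p = 1.6e-13). In HEK293T cells SESN2 went from 67.4, 66.3 and 63.9 CPM to 306, 293 and 289.8 CPM, 4.50-fold (log2 2.17, SE 0.08, edgeR adjusted p = 1.6e-15). Its mean was highest in TM 4 h (314 CPM) and HEK293T TM (296), which did not differ by the test (edgeR adjusted p = 0.30) although their libraries did not overlap. TM 24 h (100.8), HEK293T DMSO (65.9) and DMSO 24 h (38.7) followed, each below the group before it by the test. Untreated (36.2) and DMSO 4 h (35.2) came last, and DMSO 24 h against untreated and untreated against DMSO 4 h did not pass (edgeR adjusted p = 0.35 and 0.92).

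SESN3 (ENSG00000149212, chr11:95165513-95232541, minus strand) moved the other way. It was at 148, 129 and 165 CPM in untreated cells, 102, 146 and 146 CPM after DMSO for 4 h and 82.3, 83.2 and 89.4 CPM after TM for 4 h. The TM libraries were below all DMSO libraries (log2 -0.63, SE 0.12, edgeR adjusted p = 0.00031). Replicate 1 of DMSO at 4 h was the lowest of its group, and without it the log2 fold change was -0.77. Among the DMSO libraries SESN3 fell by a like size with time, to 81.5, 88.1 and 72.5 CPM at 24 h (log2 -0.70 against 4 h, SE 0.12, edgeR adjusted p = 0.00011), with no overlap.

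At 24 h the TM libraries of SESN3 were at 63.9, 57.3 and 78.6 CPM and overlapped with DMSO (log2 -0.27, SE 0.13, edgeR adjusted p = 0.076). Without TM replicate 3, the highest of them, the log2 fold change was -0.37 with an adjusted p of 0.024 (edgeR). In HEK293T cells SESN3 was at 52.3, 55.1 and 62.7 CPM in DMSO and 42.8, 40.7 and 40.6 CPM in TM. This difference passed the test (log2 -0.45, SE 0.13, edgeR adjusted p = 0.012), but not without DMSO replicate 3 (log2 -0.37, edgeR adjusted p = 0.064). Neither interaction passed for SESN3 (log2 0.35 with adjusted p = 0.12 for time, and -0.18 with 0.49 for cell line, edgeR). That with time passed without DMSO 4 h replicate 1 (0.54, adjusted p = 0.0062) and without TM 24 h replicate 2 (0.49, adjusted p = 0.034). In order, the means were 147 CPM (untreated), 131 (DMSO 4 h), 85.0 (TM 4 h), 80.7 (DMSO 24 h), 66.6 (TM 24 h), 56.7 (HEK293T DMSO) and 41.4 (HEK293T TM). Of neighbours in this order DMSO 4 h and TM 4 h differed by the test, as did both HEK293T groups, and the other pairs did not.

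The make-up of the sestrin family differed as well. As shares of the summed CPM per kb of exon, SESN2 made up 32.6 ± 3.53% (SD, n = 3) of sestrin RNA after DMSO for 4 h and 85.2 ± 0.53% after TM for 4 h. At 24 h it made up 40.1 ± 1.76% in DMSO and 63.9 ± 3.85% in TM, and in HEK293T cells 66.9 ± 2.18% and 91.4 ± 0.44%. The summed level of the family was 31.3 and 106 CPM per kb at 4 h, 27.9 and 45.6 at 24 h, and 28.5 and 93.6 in HEK293T cells, DMSO before TM. SESN1, the p53-responsive sestrin, passed the test in none of the TM comparisons (log2 -0.18, 0.16 and 0.03, edgeR adjusted p = 0.089, 0.11 and 0.87). Without scaling by length SESN2 made up 15.4% and 69.0% at 4 h, since SESN3 has the longer transcripts. The unscaled shares of SESN2 were 20.9% and 41.9% at 24 h, and 43.3% and 80.5% in HEK293T cells, DMSO before TM.

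**Figure D2:**
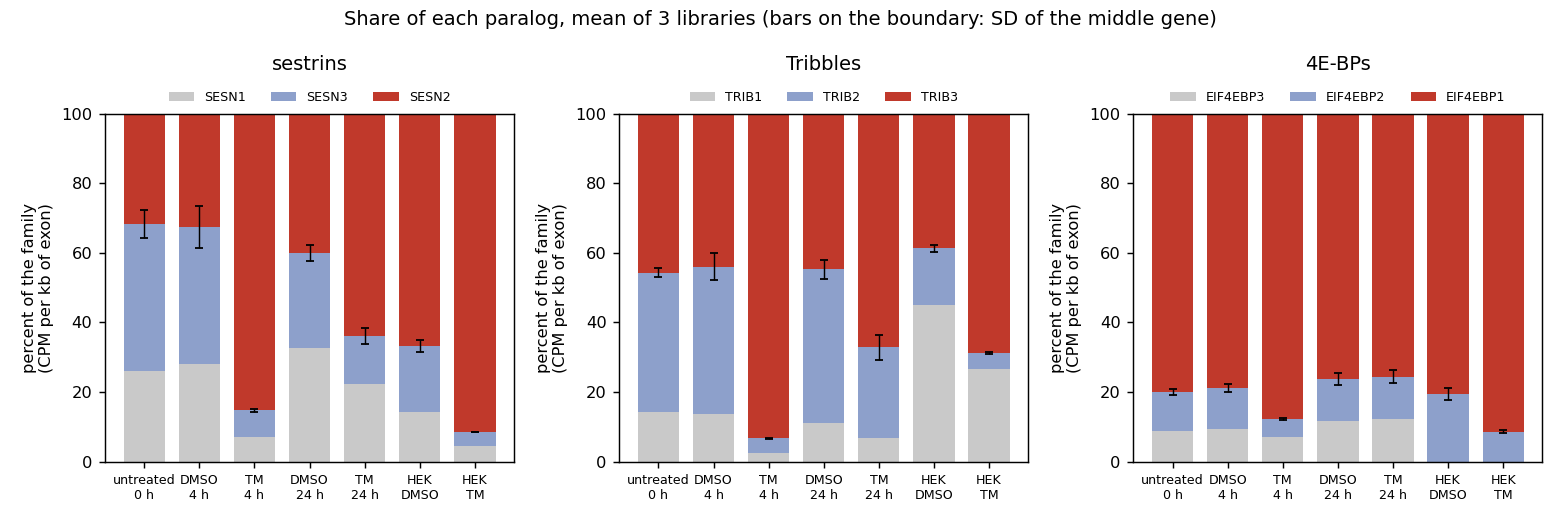
Percent of the summed CPM per kb of exon held by each paralog of the sestrins, Tribbles and 4E-BPs in the 7 groups; bars are means of 3 libraries and the error bar on the upper boundary of the blue part is the SD of that gene's share. The red part, SESN2, TRIB3 or EIF4EBP1, was larger in TM than in DMSO at 4 h and in HEK293T cells (for SESN2, 32.6 and 85.2% at 4 h).

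TRIB3 (ENSG00000101255, chr20:362835-397559, plus strand) is a pseudokinase of the Tribbles family that binds AKT and hinders its activation. Its level was 29.8, 25.7 and 24.0 CPM after DMSO for 4 h and 670.1, 672 and 630.2 CPM after TM. The libraries did not overlap, and the log2 fold change of 4.64 (SE 0.08, edgeR adjusted p = 6.8e-21) ranked 11 from the highest of all genes. At 24 h it was at 40.2, 43.4 and 45.9 CPM in DMSO and 180.1, 179 and 154 CPM in TM (log2 1.99, SE 0.08, edgeR adjusted p = 3.8e-15). The TM level at 24 h was 3.85-fold lower than at 4 h, and the interaction of TM with time was -2.65 on the log2 scale (SE 0.11, edgeR adjusted p = 8.3e-14).

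With time in DMSO TRIB3 rose by 1.63-fold, without overlap (log2 0.71, SE 0.08, edgeR adjusted p = 5.7e-07). In HEK293T cells it was at 16.8, 16.5 and 17.5 CPM in DMSO, the lowest of the 7 groups, and at 100.4, 98.1 and 95.7 CPM in TM (log2 2.53, SE 0.08, edgeR adjusted p = 1.8e-16). Its mean fell in the order TM 4 h (658 CPM), TM 24 h (171), HEK293T TM (98.1), DMSO 24 h (43.2), untreated (29.3), DMSO 4 h (26.5) and HEK293T DMSO (16.9). All neighbours in this order differed by the test except untreated and DMSO 4 h (edgeR adjusted p = 0.65). Of Tribbles RNA per kb, TRIB3 made up 43.9 ± 3.60% in DMSO and 93.2 ± 0.085% in TM at 4 h, 44.7 ± 4.31% and 67.2 ± 3.50% at 24 h, and 38.8 ± 0.73% and 68.7 ± 0.062% in HEK293T cells. TRIB1, a paralog that binds the ubiquitin ligase COP1, rose as well at 4 h, from 10.3 to 21.6 CPM (log2 1.07, SE 0.14, edgeR adjusted p = 2.7e-06). Over the alternative settings and with each library left out this value of TRIB1 ranged from 0.91 to 1.24, across the fold threshold. Under that threshold TRIB1 also rose at 24 h (log2 0.68, edgeR adjusted p = 0.00036) and in HEK293T cells (log2 0.95, adjusted p = 4.6e-06). The third paralog, TRIB2, rose at 4 h (log2 0.26, edgeR adjusted p = 0.033) and 24 h (log2 0.62, adjusted p = 5.2e-06) and did not pass in HEK293T cells (log2 -0.10, adjusted p = 0.59). With time in DMSO TRIB1 and TRIB2 rose as well (log2 0.39 and 0.75, edgeR adjusted p = 0.04 and 1.2e-06).

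**Figure D3:**
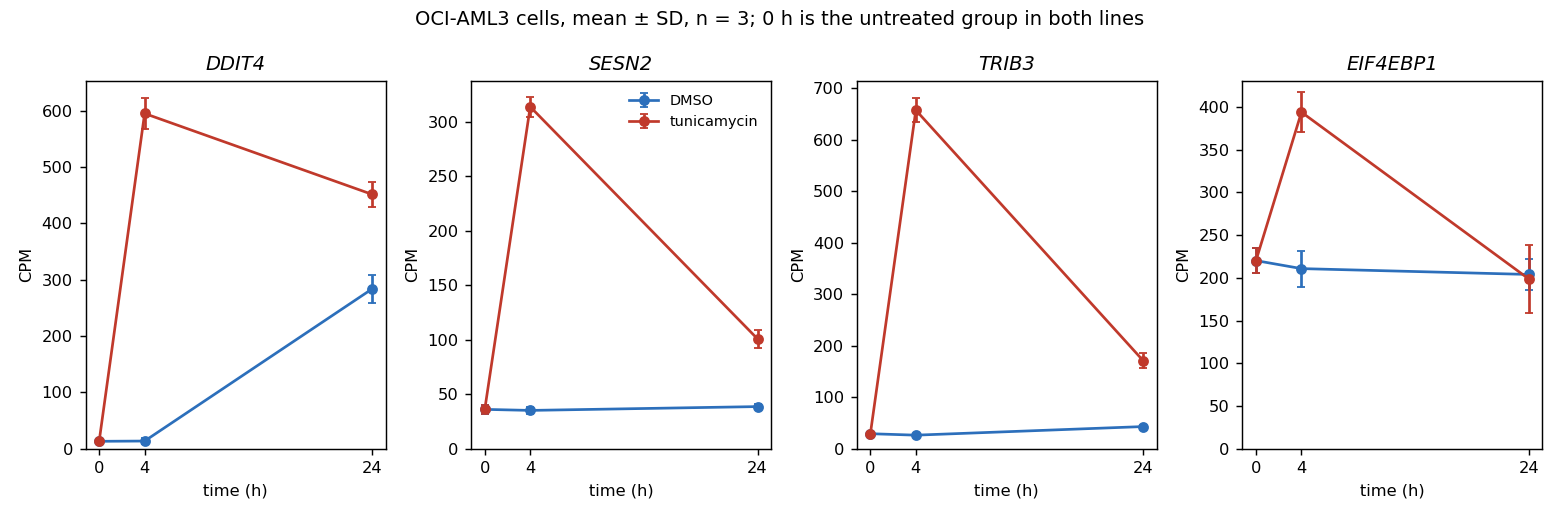
Level in CPM of DDIT4, SESN2, TRIB3 and EIF4EBP1 in OCI-AML3 cells against time in h, in DMSO (blue) and TM (red); points are means and bars the SD of 3 libraries, and both lines start from the untreated group at 0 h. The DMSO level of DDIT4 was 13.7 CPM at 4 h and 283 CPM at 24 h, whereas those of SESN2 were 35.2 and 38.7 CPM.

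DEPTOR (ENSG00000155792, chr8:119873717-120050918, plus strand) binds mTOR itself and inhibits both of its complexes. It was the least abundant of the 6 genes, at 2.12 to 5.39 CPM, which is 37 to 93 counts a library. After DMSO for 4 h it was at 3.92, 4.42 and 2.12 CPM and after TM at 3.07, 2.64 and 3.27 CPM. These overlapped (log2 -0.21, SE 0.22, edgeR adjusted p = 0.49). So did the libraries at 24 h, at 5.09, 3.66 and 5.39 CPM in DMSO and 4.22, 4.10 and 3.70 CPM in TM (log2 -0.23, SE 0.21, edgeR adjusted p = 0.37). With each library left out in turn, the log2 fold change ranged from -0.48 to -0.0018 at 4 h and from -0.35 to -0.081 at 24 h. In HEK293T cells DMSO libraries were at 4.10, 3.43 and 3.38 CPM and TM libraries at 4.70, 4.19 and 4.16 CPM, which did not overlap, and the difference did not pass the test (log2 0.26, SE 0.21, edgeR adjusted p = 0.39). Time in DMSO gave a log2 fold change of 0.44 (SE 0.21, edgeR adjusted p = 0.10), which passed without DMSO 4 h replicate 2 (0.65, adjusted p = 0.032) and without DMSO 24 h replicate 2 (0.60, adjusted p = 0.042). None of the neighbours in the order of DEPTOR's 7 group means, from 4.72 CPM (DMSO 24 h) to 2.73 CPM (untreated), differed by the test.

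EIF4EBP1 (ENSG00000187840, chr8:38030534-38060365, plus strand) encodes 4E-BP1, which binds the cap-binding protein eIF4E and blocks translation until mTORC1 phosphorylates it. After DMSO for 4 h it was at 235, 201 and 197 CPM and after TM at 374, 419.9 and 387 CPM. The groups did not overlap, and the log2 fold change of 0.90 (SE 0.11, edgeR adjusted p = 5.9e-07) was just under the fold threshold. Without replicate 1 of DMSO it was 1.002, just above it. By 24 h the TM libraries were back at 207, 234 and 155 CPM, among the DMSO libraries at 185, 206 and 221 CPM (log2 -0.04, SE 0.11, edgeR adjusted p = 0.78). TM replicate 3 was the lowest of these, and without it the log2 fold change was 0.15 (edgeR adjusted p = 0.20). The interaction of TM with time was -0.94 (SE 0.15, edgeR adjusted p = 6.3e-05).

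In HEK293T cells EIF4EBP1 behaved otherwise at 24 h. It was at 112, 117 and 100.3 CPM in DMSO and at 308, 306 and 290.0 CPM in TM, 2.74-fold higher with no overlap (log2 1.46, SE 0.11, edgeR adjusted p = 7.1e-10). The effect of TM at 24 h was greater in HEK293T than in OCI-AML3 cells by 1.50 on the log2 scale (SE 0.15, edgeR interaction, adjusted p = 2.8e-07). Time in DMSO did not change EIF4EBP1 by the test (log2 -0.05, SE 0.11, edgeR adjusted p = 0.75). Its order was TM 4 h (394 CPM), HEK293T TM (301), untreated (220.2), DMSO 4 h (211), DMSO 24 h (204), TM 24 h (199) and HEK293T DMSO (109.8), and the neighbours from untreated to TM 24 h did not differ by the test.

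EIF4EBP1 made up 78.7 ± 0.57% of 4E-BP RNA per kb in DMSO and 87.7 ± 1.10% in TM at 4 h, 76.2 ± 1.32% and 75.6 ± 2.39% at 24 h, and 80.5 ± 1.63% and 91.4 ± 0.38% in HEK293T cells. These shares rest on annotated exon length, and without that scaling EIF4EBP1 made up 42.0% and 64.0% at 4 h. The unscaled shares were 40.6% and 40.4% at 24 h, and 32.9% and 55.4% in HEK293T cells, DMSO before TM. EIF4EBP2 then held the largest share in HEK293T cells in DMSO, 67.1%. EIF4EBP2 fell at 4 h (log2 -0.46, SE 0.06, edgeR adjusted p = 2.2e-06) and did not pass the test at 24 h in either line. EIF4E, the target of the 4E-BPs, fell in OCI-AML3 cells at 4 h (log2 -0.58, SE 0.08, edgeR adjusted p = 5.6e-06) and at 24 h (log2 -0.27, SE 0.08, edgeR adjusted p = 0.010) and in HEK293T cells (log2 -0.23, SE 0.08, edgeR adjusted p = 0.036). The summed 4E-BP level per kb was 13.6 ± 2.0 times that of EIF4E after DMSO for 4 h and 33.9 ± 1.24 times after TM. At 24 h the ratio was 18.1 ± 2.39 in DMSO and 21.1 ± 4.07 in TM, with overlapping libraries, and in HEK293T cells 6.01 ± 0.69 and 17.1 ± 1.67. Without scaling by length the ratios were 4.50 and 8.22 at 4 h, 6.0 and 6.98 at 24 h, and 2.60 and 4.97 in HEK293T cells. These are ratios of RNA, and protein and its phosphorylation were not examined.

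**Figure D4:**
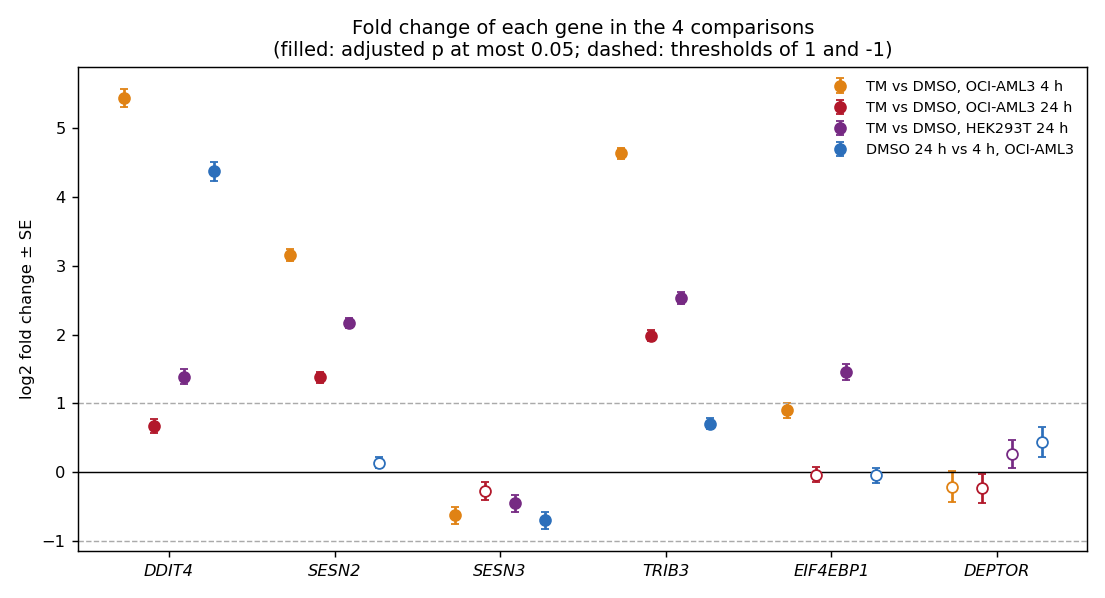
Log2 fold change with its standard error for each gene in the TM comparisons at 4 h and 24 h in OCI-AML3 cells and at 24 h in HEK293T cells, and in DMSO at 24 h against 4 h; filled points have an adjusted p of at most 0.05 and dashed lines mark 1 and -1. DDIT4 stands at 5.44 for TM at 4 h and at 4.37 for time in DMSO.

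Time in culture was asked by comparing DMSO at 24 h with DMSO at 4 h. Untreated cells were sampled at 0 h only, so time apart from exposure to DMSO was not tested. Of the 6 genes DDIT4 alone was called higher and 0 lower, where 3.48% of all genes were called higher and 0.664% lower. By the adjusted p alone 3 of the 6 changed in either direction (DDIT4 and TRIB3 rose and SESN3 fell), where 42.6% of all genes did. The TM comparisons at 4 h and 24 h have controls that differ by this change, so TM at 24 h was also set against TM at 4 h. DDIT4, SESN2, SESN3, TRIB3 and EIF4EBP1 were then lower at 24 h by the adjusted p, by 0.40, 1.64, 0.35, 1.94 and 0.99 on the log2 scale, in a comparison where 59.3% of all genes passed it. DEPTOR did not pass (log2 0.42, SE 0.22, edgeR adjusted p = 0.11), although its libraries did not overlap.

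The interaction of TM with time passed for DDIT4, SESN2, TRIB3 and EIF4EBP1, all towards a smaller effect at 24 h, among 35.3% of all genes that passed in either direction. For SESN2 it was -1.78 on the log2 scale (SE 0.11, edgeR adjusted p = 1.6e-10). The same 4 genes passed the interaction of TM with cell line at 24 h, all with a greater effect in HEK293T cells, among 26.8% of all genes. There the differences were 0.72 for DDIT4 (SE 0.15, edgeR adjusted p = 0.0013), 0.79 for SESN2 (SE 0.11, adjusted p = 2e-05) and 0.55 for TRIB3 (SE 0.11, adjusted p = 0.00093), beside the 1.50 of EIF4EBP1. Both interactions use the OCI-AML3 libraries of 24 h.

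The starting levels of the lines differed too. In DMSO at 24 h HEK293T cells had less DDIT4 (log2 -1.45), TRIB3 (-1.35), EIF4EBP1 (-0.89) and SESN3 (-0.51) than OCI-AML3 cells and more SESN2 (0.76), with adjusted p-values (edgeR) of at most 0.0008, while DEPTOR did not pass (log2 -0.37, adjusted p = 0.11). In this comparison 82.7% of all genes passed in one direction or the other. Scaling by library size without TMM shifted the median of all genes by 0.34 here, and SESN3 then stood at -0.17 and no longer passed.

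Per kb of exon, the levels of the 6 genes could be set beside each other. After TM for 4 h EIF4EBP1 was at 448 ± 26.7, DDIT4 at 281 ± 12.7, TRIB3 at 199.8 ± 7.21, SESN2 at 90.7 ± 2.62, SESN3 at 8.03 ± 0.36 and DEPTOR at 1.14 ± 0.12 CPM per kb. After DMSO for 4 h EIF4EBP1 was at 239.6 ± 23.8 CPM per kb and the next, SESN3, at 12.4 ± 2.42. The order rests on annotated exon length, and in CPM after TM for 4 h TRIB3 (658) and DDIT4 (595) stood above EIF4EBP1 (394). After DMSO for 4 h DDIT4 was at 6.49 ± 2.19 CPM per kb, TRIB3 at 8.04 ± 0.90 and SESN2 at 10.2 ± 1.01.

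Genes whose pattern over the 15 OCI-AML3 libraries was most like each of the 6 were found by Pearson correlation of log2 CPM. These libraries form 5 groups, so the coefficients mostly compare group means. DDIT4 was followed most closely by ENSG00000269926 (r = 0.999), with 2.94 ± 0.63 CPM in DMSO and 109 ± 7.36 CPM in TM at 4 h. The annotation used here gives neither its name nor its position, and whether it overlaps DDIT4 and holds reads of DDIT4 was not tested. VLDLR, a lipoprotein receptor (r = 0.991), and TSC22D3, the glucocorticoid-induced leucine zipper (r = 0.986), came next. SESN2 and TRIB3 were both closely followed by PCK2, the mitochondrial PEP carboxykinase (r = 0.996 and 0.994), which went from 80.8 to 345 CPM with TM at 4 h. The other nearest genes were NLRP12 and CARS1 for SESN2 and PLEK and ADM2 for TRIB3. SESN3 was most like CENPJ, KIF11 and TOP1 (r = 0.975, 0.975 and 0.965), of which CENPJ acts in centriole assembly and KIF11 is the spindle motor Eg5. EIF4EBP1 was most like CYREN, IRF7 and MED10 (r = 0.965, 0.963 and 0.960), and DEPTOR was most like DEGS2, TBC1D2B and TMEM187 (r = 0.869, 0.857 and 0.843). Among the 6 genes themselves the highest coefficient was that of SESN2 with TRIB3 (r = 0.990), and that of DDIT4 with SESN3 was -0.90.

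For the other genes of the pathway the shares of all genes called are again 3.45% higher and 1.47% lower at 4 h, 4.05% and 2.26% at 24 h, 1.58% and 0.550% in HEK293T cells, and 3.48% and 0.664% with time in DMSO. Of 11 subunits and assembly factors of the mTOR complexes, 1 was called higher at 4 h, MLST8, a subunit of both complexes (98.2 to 214 CPM, log2 1.13, SE 0.10, edgeR adjusted p = 5.7e-09). At 24 h 1 was called lower, PRR5L of mTORC2 (4.40 to 1.67 CPM, log2 -1.39, SE 0.25, edgeR adjusted p = 9.5e-05), and in HEK293T cells none. By the adjusted p alone 1 rose and 4 fell at 4 h, 0 rose and 6 fell at 24 h, and 0 rose and 1 fell in HEK293T cells, where 18.9%, 27.7% and 13.1% of all genes fell. The medians of these 11 genes were -0.09, -0.21 and -0.02 on the log2 scale, beside -0.02, -0.01 and -0.01 for all genes. MTOR itself passed the adjusted p at 24 h (log2 -0.41, SE 0.07, edgeR adjusted p = 8.3e-05) and not at 4 h or in HEK293T cells (log2 -0.09 and -0.02).

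Of 29 genes of amino acid sensing, the GATOR, KICSTOR, Rag, Ragulator and folliculin complexes among them, 0 were called at 4 h. At 24 h RRAGD, a Rag GTPase, was lower (13.7 to 6.53 CPM, log2 -1.06, SE 0.16, edgeR adjusted p = 1.3e-05), and with time in DMSO it was higher (6.79 to 13.7 CPM, log2 1.01). In HEK293T cells SLC38A9, the lysosomal arginine sensor, was higher (22.2 to 45.0 CPM, log2 1.02, SE 0.10, edgeR adjusted p = 7.5e-08). These values lie next to the fold threshold. Over the alternative settings and with each library left out they ranged from -1.12 to -0.85 for RRAGD at 24 h, from 0.85 to 1.12 for RRAGD with time in DMSO and from 0.96 to 1.07 for SLC38A9. SLC38A9 also rose in OCI-AML3 cells under the fold threshold, by 0.43 at 4 h (edgeR adjusted p = 0.0026) and 0.86 at 24 h (adjusted p = 6.5e-07). Its interaction of TM with cell line did not pass (log2 0.15, edgeR adjusted p = 0.47). By the adjusted p alone 5 of the 29 rose and 6 fell at 4 h, 6 rose and 14 fell at 24 h, and 2 rose and 3 fell in HEK293T cells, beside 18.5% and 18.9%, 23.5% and 27.7%, and 12.6% and 13.1% of all genes.

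Of the TSC complex, RHEB and AMPK, 10 of 11 genes were tested (PRKAA2 was not), and of PI3K, AKT and their phosphatases all 15 were. None of either list was called in any of the 4 comparisons, where the shares of all genes called were at most 4.05% in either direction. By the adjusted p alone 3 of the 15 PI3K and AKT genes rose and 5 fell at 4 h, 7 rose and 5 fell at 24 h, and 0 rose and 3 fell in HEK293T cells. Of the 10 TSC, RHEB and AMPK genes 1 rose and 1 fell at 4 h, 2 rose and 1 fell at 24 h, and none passed in HEK293T cells. By that rule 18.5% of all genes rose and 18.9% fell at 4 h, 23.5% and 27.7% at 24 h, and 12.6% and 13.1% in HEK293T cells. AKT1 fell slightly by the adjusted p in all 3 TM comparisons (log2 -0.27, -0.36 and -0.23, edgeR adjusted p = 0.0017, 6.3e-05 and 0.011). Of 14 genes downstream of mTORC1, GRB10, an adaptor that restrains insulin receptor signalling, was called higher at 4 h (12.4 to 36.5 CPM, log2 1.55, SE 0.08, edgeR adjusted p = 8.7e-13) and at 24 h (12.8 to 28.6 CPM, log2 1.16, SE 0.08, edgeR adjusted p = 2.5e-10). In HEK293T cells its log2 fold change was 0.84 (SE 0.07, edgeR adjusted p = 4.5e-09), under the fold threshold.

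**Figure D5:**
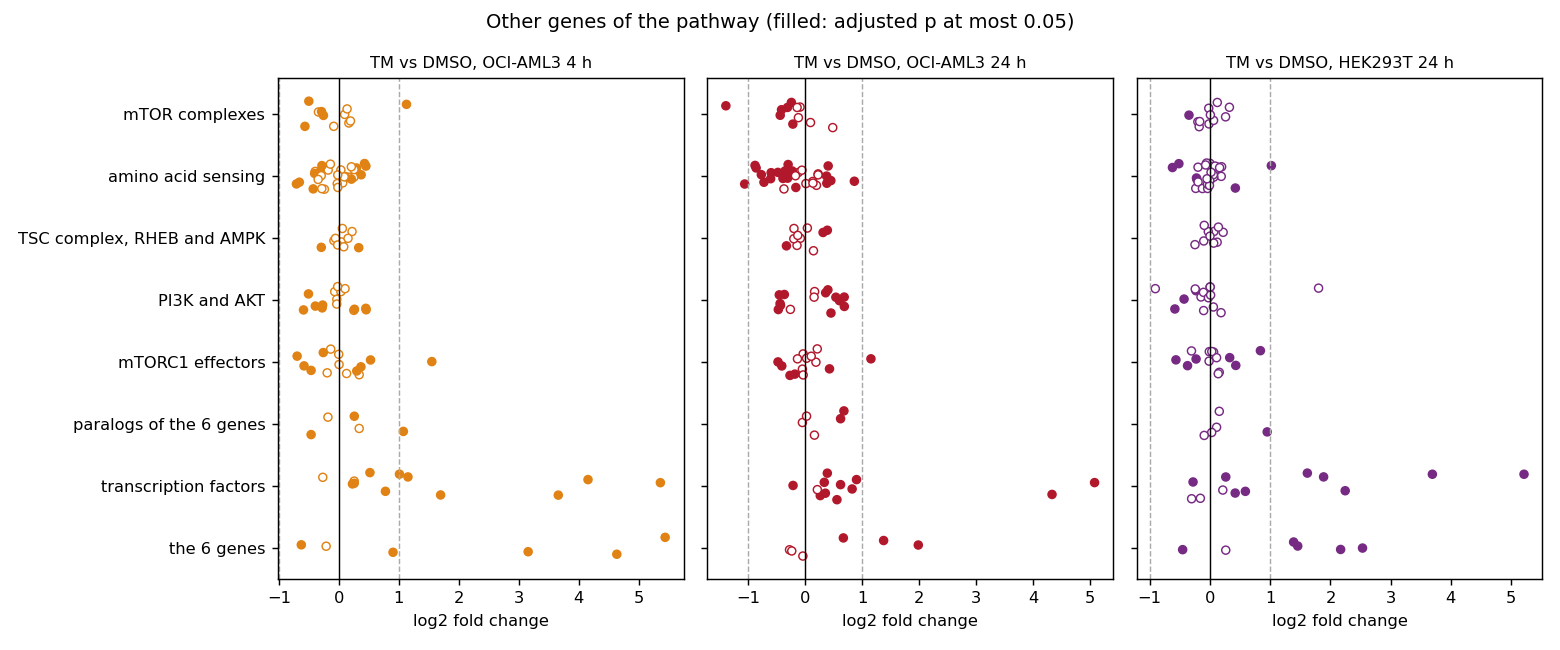
Log2 fold change with TM of the genes of each list and of the 6 genes, in the 3 TM comparisons; each point is a gene, filled where the adjusted p is at most 0.05, dashed lines mark 1 and -1, and the vertical position within a row has no meaning. Of the lists of signalling genes few points lie beyond the dashed lines, while DDIT3 among the transcription factors stands at 5.36, 4.33 and 3.69.

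Of 12 transcription factors known to act on one or other of these genes 6 were called higher and 0 lower at 4 h, 2 and 0 at 24 h, and 5 and 0 in HEK293T cells, where 3.45%, 4.05% and 1.58% of all genes were called higher. Their medians were 0.89, 0.47 and 0.50 on the log2 scale. DDIT3 reached 454 CPM at 4 h (log2 5.36, SE 0.12, edgeR adjusted p = 9.4e-20), 219 CPM at 24 h (log2 4.33) and 84.5 CPM in HEK293T cells (log2 3.69). ATF3 went from 1.49 to 18.7 CPM at 4 h (log2 3.66, SE 0.17, edgeR adjusted p = 6.7e-14) and from 19.2 to 90.9 CPM in HEK293T cells (log2 2.24, SE 0.11). At 24 h in OCI-AML3 cells ATF3 rose less and under the fold threshold (log2 0.56, SE 0.19, edgeR adjusted p = 0.018). Its interaction of TM with time was -3.10 (SE 0.27, edgeR adjusted p = 2.1e-08). NUPR1, a small stress-induced cofactor, was at 0.31 CPM in DMSO and 5.68 CPM in TM at 4 h, near the lower limit of detection in DMSO. ATF4 mRNA rose by 1.01 on the log2 scale at 4 h (SE 0.08, edgeR adjusted p = 2.4e-09), 0.90 at 24 h (SE 0.08, adjusted p = 1.3e-08) and 0.59 in HEK293T cells (SE 0.08, adjusted p = 1.5e-05). Of the FOXO factors, known to act on SESN3, FOXO3 rose at 4 h (log2 0.78, SE 0.09, edgeR adjusted p = 5e-07), while FOXO1 (log2 0.25, adjusted p = 0.17) and FOXO4 (log2 -0.27, adjusted p = 0.052) did not pass. At 24 h FOXO3 (log2 0.34, edgeR adjusted p = 0.0039) and FOXO4 (log2 0.36, adjusted p = 0.0052) rose and FOXO1 did not pass (log2 0.21, adjusted p = 0.23), and in HEK293T cells none of the FOXO genes passed (log2 0.21, -0.16 and -0.31 for FOXO3, FOXO4 and FOXO1). Whether any of these factors acted on the 6 genes was not tested.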

How the data were processed

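Polyadenylated RNA of 21 samples was measured. From paired-end reads, trimmed by seqtk and mapped to GRCh38 by STAR, the authors deposited RSEM expected counts per gene on Ensembl release 101, unscaled and unfiltered. The setting for strand is not given in the sources used here, so overlapping antisense genes cannot be told apart. RSEM divides reads between similar genes. Here values were rounded to whole numbers, and between 3.54 and 4.22% of a library's values had not been whole.

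The members and gene lists were chosen with earlier results of these data known. Genes that reached 1 CPM in 8 or more libraries were fitted in edgeR 4.0.16 (R 4.3.3; quasi-likelihood test, TMM, a mean for each of 7 groups), with Benjamini-Hochberg adjustment over 14012 genes. The SE of a log2 fold change is its size over the square root of F. CPM use TMM-scaled library sizes, log2 CPM a prior count of 2, and values per kb the exon length of GENCODE release 44. Named were the 6 genes, at most 3 called genes of a list in each direction, and the 3 genes most like each member. MTOR, AKT1, EIF4E, ATF4 and the FOXO genes were named after their values had been seen.

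Alternatives were limma voom (limma 3.58.1), DESeq2 1.42.0 by its Wald test, its size factors within edgeR, unscaled library sizes, a filter of 1 count or of 1 CPM in 3 libraries, fits of only the groups compared, a replicate block, leaving out each library, adjusted p without a fold threshold and no length scaling. Promoters are from the RefSeq table on GRCh38, and no protein sequences were analysed here.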

Additional observations from a re-analysis of the deposited data

Results flagged for a closer look

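The effect of TM on 4 of the 6 genes differed between times or cell lines by the interaction terms (edgeR, adjusted p over all genes tested). For OCI-AML3 cells the TM effect at 24 h minus that at 4 h was -4.77 on the log2 scale for DDIT4, -1.78 for SESN2, -2.65 for TRIB3 and -0.94 for EIF4EBP1. Between HEK293T and OCI-AML3 cells at 24 h it was 0.72 for DDIT4, 0.79 for SESN2, 0.55 for TRIB3 and 1.50 for EIF4EBP1. The DMSO level differed between the times for DDIT4 (4.37) and TRIB3 (0.71), and between the lines for DDIT4 (-1.45), SESN2 (0.76), TRIB3 (-1.35) and EIF4EBP1 (-0.89). With 3 samples a group no test for outliers was run, but each library was left out in turn.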

How the results depend on the processing

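Of 1044 alternative values for the 36 member values (6 genes in 4 comparisons and 2 interactions), 1010 kept the direction and side of the adjusted p threshold, and 29 of the 36 did so throughout. Of the values in the 4 comparisons only EIF4EBP1 at 4 h crossed the fold threshold, from 0.90 to 1.002 without DMSO replicate 1. SESN3 at 24 h passed without the filter (-0.29, adjusted p = 0.0072), and its interaction with time likewise (0.37). EIF4EBP1 at 24 h was 0.034 without TMM. The DEPTOR interaction with time (-0.021) was 0.019 with DESeq2, 0.018 with its size factors, 0.022 in the compared groups alone, 0.013 with 1 CPM in 3 libraries and 0.076 without TMM. Without a fold threshold 5 members were called at 4 h and 3 with time in DMSO. Leaving out 1 library each, EIF4EBP1 ranged from -0.12 to 0.15 at 24 h and from -0.11 to 0.040 with time in DMSO, SESN3 from -0.37 to -0.12 at 24 h, from -0.51 to -0.37 in HEK293T cells and from 0.24 to 0.54 for its interaction with time, and DEPTOR from 0.17 to 0.65 with time in DMSO and from -0.23 to 0.25 for its interaction. The cause was not tested. The 464 alternative values of list genes named by the rule (called genes, at most 3 a list and direction) kept their direction and side of the adjusted p threshold. Of 56 counts of called list genes 7 moved past the limit set for a change in a count, and moves within that limit are not included. The 6 transcription factors called at 4 h include ATF4 at 1.01, next to the fold threshold. The fold threshold was no longer reached by TRIB1 at 4 h without DMSO replicate 3 (0.91) or TM replicate 1 (0.998). RRAGD at 24 h lost it without TMM (-0.98), DMSO replicate 1 (-0.85) or TM replicate 2 (-0.93), and SLC38A9 without TMM (0.99), HEK293T DMSO replicate 2 (0.99) or TM replicate 3 (0.96). RRAGD with time in DMSO lost it with limma voom (0.99), without TMM (0.89), without the filter (0.99) and without replicate 1 of DMSO at 4 h (0.92) or 24 h (0.85). The alternatives were also fitted for MTOR, AKT1, EIF4E, ATF4, the FOXO genes, SESN1, EIF4EBP2 and the other list genes outside that rule. How far the values of these genes moved was not summarised here.

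Replicate numbers did not pair the samples (correlations of deviations from -0.14 to 0.13). With the replicate block no member's call changed (SESN3 at 24 h -0.29, adjusted p = 0.051), and 485 genes were called higher and 205 lower at 4 h, against 484 and 206 without it. Without the filter 1033, 1401, 514 and 917 genes were called in the 4 comparisons, against 690, 885, 298 and 581. Library sizes without TMM moved the split of calls at 24 h from 568 higher and 317 lower to 708 and 249, and with time in DMSO from 488 and 93 to 381 and 165, with a shift in the median of all genes of -0.12 in the latter.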
